A study of Boehmeria nivea with 6 samples.

Results

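Stem was set against root within each of 2 ramie varieties, and the stem minus root difference of every gene was then compared between the varieties. The genes described are the 14425 of 20693 in the deposited table that reached at least 1 FPKM (sequenced fragments per gene, relative to gene length and library size) in at least 2 of the 4 stem and root libraries. Ramie (Boehmeria nivea) is a perennial bast-fibre crop. The 4 libraries were the stem and root of the cultivar ZSZ1 and the stem and root of the wild tenacissima accession QYZM, all from plants aged 30 days. No treatment or altered genotype is labelled. Each organ of each variety had 1 library, so no value has a replicate, and the number of plants behind a library is not known here. The 2 leaf libraries of the same varieties enter only where they are named.

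Stems and roots both carry xylem, which conducts water, and phloem, which conducts sugars. In ramie the stem phloem also holds the bast fibres, long cells with thick cellulose-rich walls for which the plant is grown, whereas roots take up water and minerals. Identifiers in the table come without gene names, and no annotation was used here. Genes are therefore given by identifier, no role can be stated for them, and the organ labels were not checked against marker genes. In whole organs, fewer cells of one type and less RNA per cell cannot be told apart.

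Summed FPKM were 387807 in ZSZ1 stem, 368145 in ZSZ1 root, 390460 in QYZM stem and 385714 in QYZM root. The number of reads per library is unknown. Assuming counts of whole fragments, the spacing of low values placed the libraries at 1.01, 1.01, 1.11 and 0.882 times their common mean depth in the same order. Of the 6268 genes left out, 5282 reached 1 FPKM in none of the 4 libraries and 986 in 1 of them. A gene present in a single library was thus left out however high it stood, and the highest such value was 552 FPKM, for Bnt01G001079 in QYZM stem. Only 26 of the 986 reached 10 FPKM, 8 of them in ZSZ1 stem, 14 in ZSZ1 root, 1 in QYZM stem and 3 in QYZM root. At the edge of the filter, the second highest of a gene's 4 values was 1.00018 FPKM for the last gene kept and 0.999928 FPKM for the first left out.

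Differences were taken on the log2(FPKM + 1) scale, where 1 is 2-fold and changes of low genes are understated. ZSZ1 stem and root were at least 2-fold apart in 4227 genes, which is 29.3% of the members, with 2625 higher in stem (18.2%) and 1602 higher in root (11.1%). QYZM stem and root were at least 2-fold apart in 2555 genes, or 17.7%, with 1619 higher in stem (11.2%) and 936 higher in root (6.49%). At 4-fold the counts were 1645 genes in ZSZ1 (11.4%) and 650 in QYZM (4.51%). Both varieties therefore had more genes higher in stem than in root at both sizes, and ZSZ1 had more genes past each size than QYZM. With 1 library against 1, these are rules of size with no test.

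Each gene was placed in a class by the 2 differences. In both varieties 1140 genes were at least 2-fold higher in stem (7.90% of the members) and 561 at least 2-fold higher in root (3.89%). A 2-fold difference in ZSZ1 alone was seen in 2352 genes, of which 1404 were higher in stem and 948 higher in root. A 2-fold difference in QYZM alone was seen in 680 genes, 386 higher in stem and 294 higher in root. In 174 genes the varieties were 2-fold apart in opposite directions, with 81 higher in ZSZ1 stem and in QYZM root, and 93 higher in ZSZ1 root and in QYZM stem. The remaining 9518 genes were under 2-fold in both. At 4-fold, 430 genes were shared, 1179 were past the size in ZSZ1 alone, 184 in QYZM alone and 36 in opposite directions.

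**Figure D1:**
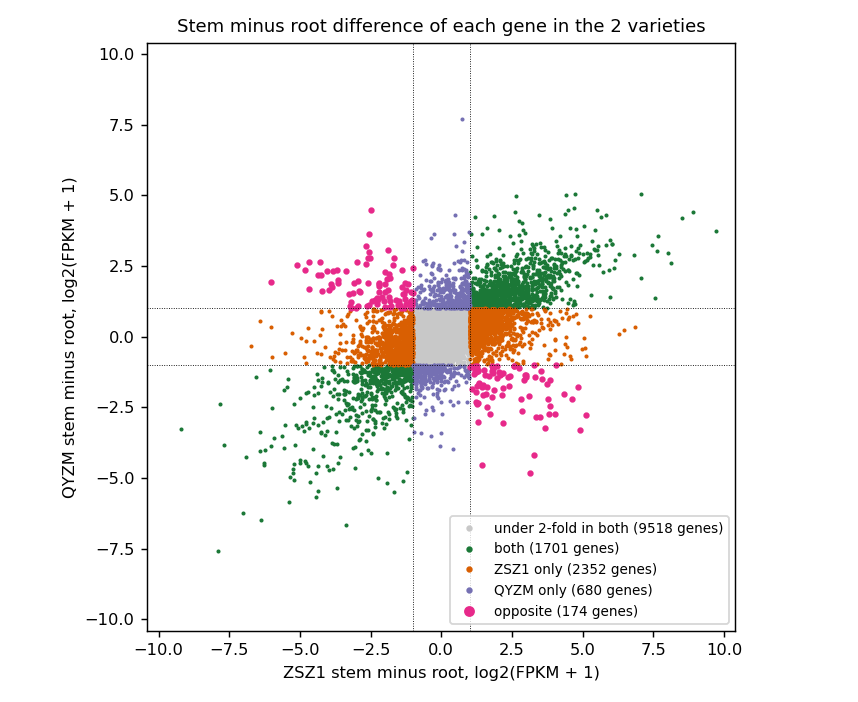
Stem minus root difference of each of the 14425 genes on the log2(FPKM + 1) scale, in ZSZ1 (horizontal) and QYZM (vertical), 1 point per gene, with dotted lines at 2-fold. The 1701 genes past 2-fold in the same direction fill the upper right and lower left corners, the 174 opposite genes the other two, and the cloud is wider along the ZSZ1 axis.

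The lists of unequal length overlapped unequally. The 1140 shared stem-higher genes were 43.4% of the ZSZ1 stem-higher list and 70.4% of the QYZM one. The 561 shared root-higher genes were 35.0% of the ZSZ1 root-higher list and 59.9% of the QYZM one. Opposite genes were 4.12% of all genes past 2-fold in ZSZ1 and 6.81% of those in QYZM. Across all 14425 genes the 2 differences, which share no library, correlated at Pearson r = 0.607 and Spearman rho = 0.570. This is a description across genes, which are not independent replicates.

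Class borders were not gaps in the data. The gene nearest above the 2-fold limit stood at 1.00046 in ZSZ1 and the one nearest below at 0.999735, and 941 genes lay within 0.1 of the limit in ZSZ1 and 804 in QYZM. Many genes called in 1 variety alone leaned the same way in the other. Of the 1404 genes 2-fold higher in stem in ZSZ1 alone, 1127 were also higher in stem in QYZM, and the median difference was 1.47 in ZSZ1 and 0.50 in QYZM. Of the 948 root-higher genes of ZSZ1 alone, 679 were also higher in QYZM root, with a median of -1.45 in ZSZ1 and -0.31 in QYZM. Of the 386 stem-higher genes of QYZM alone, 282 were higher in ZSZ1 stem, and of the 294 root-higher ones, 222 were higher in ZSZ1 root. Requiring less than 0.5 in the other variety left 1155 genes in ZSZ1 alone (623 stem-higher, 532 root-higher) and 314 in QYZM alone (164 stem-higher, 150 root-higher).

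The wider range of ZSZ1 was seen in each of 7 ranges of expression level. The standard deviation of the difference across genes was 1.31 in ZSZ1 and 0.90 in QYZM, and the central 90% of genes ran between -1.83 and 2.37 in ZSZ1 and between -1.17 and 1.56 in QYZM. Median differences were near 0 in both, at 0.01 in ZSZ1 and 0.02 in QYZM. Among the 1444 genes with a mean below 2 FPKM over the 4 libraries, the standard deviation was 0.94 in ZSZ1 and 0.75 in QYZM, a ratio of 1.25. Among the 3219 genes of 10 to 20 FPKM it was 1.29 and 0.90, a ratio of 1.43, and among the 628 genes at 100 FPKM or more it was 2.02 and 1.28, a ratio of 1.58. The correlation between the 2 varieties' differences was 0.490 in the lowest of these 3 ranges, 0.601 in the middle one and 0.759 in the highest. Neither the correlation nor the ratio rose at every step over the 7 ranges. The correlation was 0.639 at 20 to 50 FPKM and 0.613 at 50 to 100 FPKM, where the ratio was 1.60.

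Genes chosen by the size of their difference in one variety were read in the other. The other variety is not independent of the choice, since its libraries count towards the filter of 1 FPKM in 2 of the 4 libraries. The 151 genes at least 16-fold higher in ZSZ1 stem (4 or more on the log2 scale) had a median of 4.65 in ZSZ1 and 2.48 in QYZM, and 131 of them were higher in QYZM stem. The 620 genes between 2 and 3 in ZSZ1 had a median of 2.37 in ZSZ1 and 1.18 in QYZM. The reverse choice gave larger values. The 300 genes between 2 and 3 in QYZM had a median of 2.68 in ZSZ1 and 2.38 in QYZM, and the 22 genes at 4 or more in QYZM had 4.09 in ZSZ1 and 4.38 in QYZM, with 21 of them higher in ZSZ1 stem.

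Root-higher genes chosen in QYZM had medians of smaller size in ZSZ1 than in QYZM in every bin. Stem-higher genes chosen in QYZM did so only in the highest bin. The 163 root-higher genes between -2 and -3 in QYZM had a median of -2.07 in ZSZ1 and -2.39 in QYZM. The 105 genes at -4 or lower in ZSZ1 had a median of -4.79 in ZSZ1 and -2.52 in QYZM, where 87 of them were higher in root. The 45 genes at -4 or lower in QYZM had a median of -4.37 in ZSZ1 and -4.63 in QYZM. In ZSZ1, 42 of them were higher in root and 3 were at least 2-fold higher in stem. Median differences of genes chosen in QYZM were thus nearer to their size in ZSZ1 than those of genes chosen in ZSZ1 were in QYZM, in both directions. With the filter set on the variety of choice alone (1 FPKM in its stem or root), an alternative chosen after seeing the data, the 648 stem-higher genes between 2 and 3 in ZSZ1 had medians of 2.37 in ZSZ1 and 1.14 in QYZM. The 305 such genes of QYZM then had medians of 2.65 in ZSZ1 and 2.38 in QYZM. For root-higher genes between -2 and -3 the medians were -2.42 in ZSZ1 and -0.82 in QYZM for the 393 chosen in ZSZ1, and -1.84 in ZSZ1 and -2.37 in QYZM for the 185 chosen in QYZM. The bins hold different genes, and no test was made. The asymmetry between the 2 choices is not independent of the wider range of ZSZ1. Unequal standard deviations (1.31 in ZSZ1, 0.90 in QYZM) with r = 0.607 give an asymmetry in this direction by arithmetic. How large an asymmetry they give was not computed. The contrast between stem-higher and root-higher genes chosen in QYZM was not tested.

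**Figure D2:**
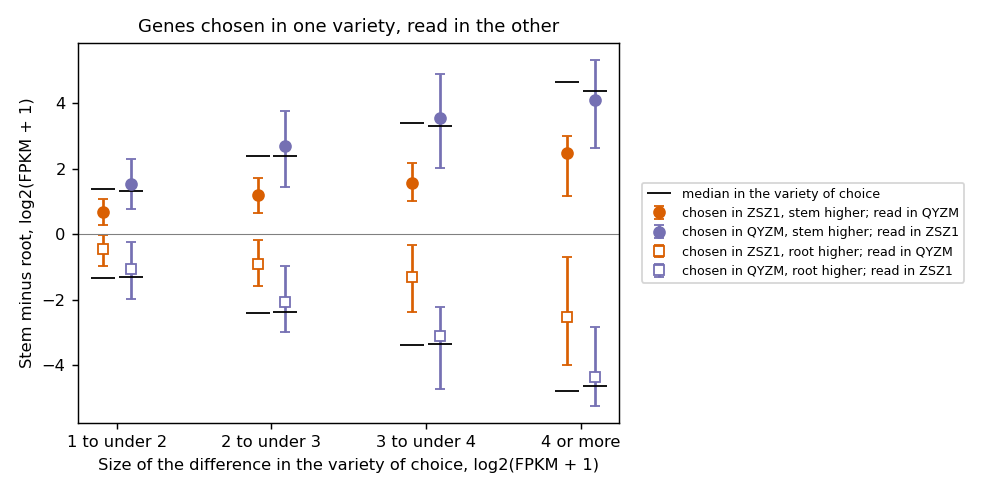
Median (marker) and interquartile range (bar) of the stem minus root difference, on the log2(FPKM + 1) scale, of genes chosen by the size of their difference in 1 variety and read in the other, with the median in the variety of choice as a black dash. Markers for genes chosen in QYZM lie near their dash (2.68 in ZSZ1 and 2.38 in QYZM for the 300 genes between 2 and 3), those for genes chosen in ZSZ1 nearer to 0 (2.37 in ZSZ1 and 1.18 in QYZM for the 620 genes between 2 and 3).

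The shared genes, 11.8% of the members, made up 20.2% of the summed FPKM of ZSZ1 stem and 16.3% of QYZM stem, against 11.1% of ZSZ1 root and 10.2% of QYZM root. These shares come from the libraries that chose the genes and are a description. The 1140 shared stem-higher genes made up 19.1% of the summed FPKM of ZSZ1 stem and 14.8% of QYZM stem, against 2.26% in ZSZ1 root and 3.49% in QYZM root. Their median level was 20.2 FPKM in ZSZ1 stem and 17.9 FPKM in QYZM stem, against 2.40 FPKM in ZSZ1 root and 4.46 FPKM in QYZM root. The 561 shared root-higher genes made up 1.11% of ZSZ1 stem and 1.47% of QYZM stem, against 8.81% of ZSZ1 root and 6.73% of QYZM root. Their median level was 0.895 FPKM in ZSZ1 stem and 1.64 FPKM in QYZM stem, against 12.1 FPKM in ZSZ1 root and 10.6 FPKM in QYZM root. In both sets the medians of the varieties were closer, as a ratio, in the organ of high expression than in the organ of low expression, where QYZM stood above ZSZ1.

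A named pair in each direction stood for each class, chosen as the 2 genes with the largest differences by the rule given with the processing. Bnt04G007063 was at 42.9 FPKM in ZSZ1 stem and 42.2 FPKM in QYZM stem, against 0.673 FPKM in ZSZ1 root and 0.304 FPKM in QYZM root. Bnt04G006519 was at 132 FPKM in ZSZ1 stem and 382 FPKM in QYZM stem, against a listed 0 in ZSZ1 root and 10.6 FPKM in QYZM root. Stem and root values did not overlap for either gene. In leaf they parted: Bnt04G007063 was at 0.0295 FPKM in ZSZ1 and 0.108 FPKM in QYZM, and Bnt04G006519 at 168 and 140 FPKM in the same order.

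Among shared root-higher genes, Bnt11G017074 was at 0.762 FPKM in ZSZ1 stem and 0.451 FPKM in QYZM stem, against 418 FPKM in ZSZ1 root and 277 FPKM in QYZM root. Bnt01G000282 was at 0.191 FPKM in ZSZ1 stem and 0.438 FPKM in QYZM stem, against 97.8 FPKM in ZSZ1 root and 128 FPKM in QYZM root. Both were low in every stem library and high in every root library. Leaf levels were below 1 FPKM except for Bnt01G000282 in ZSZ1 leaf, at 5.66 FPKM.

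**Figure D3:**
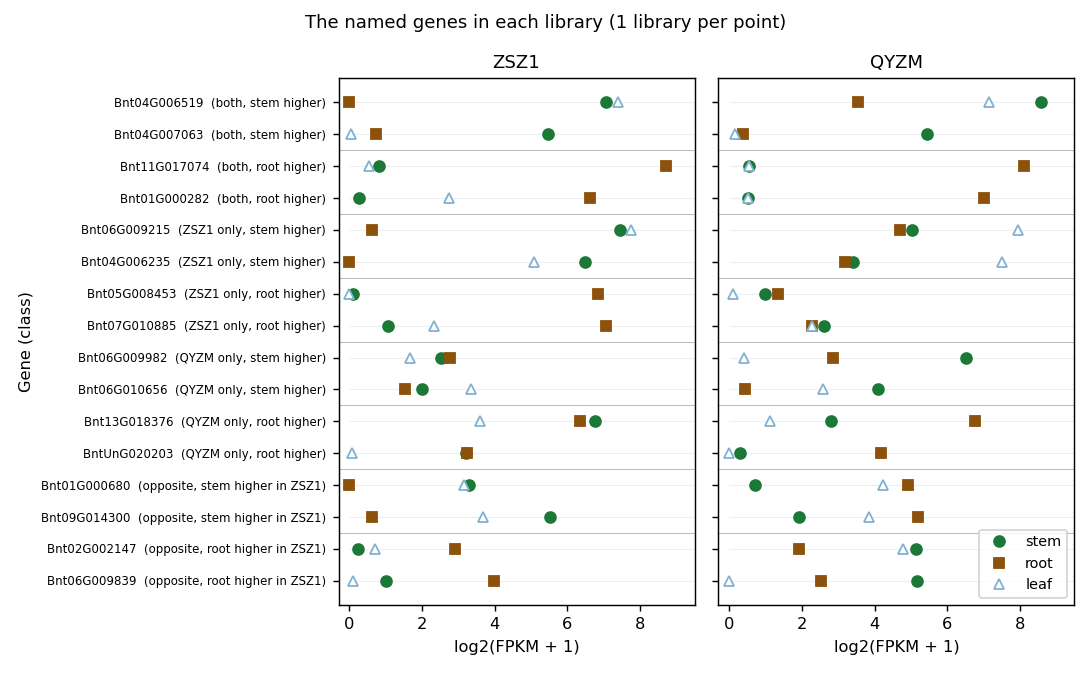
Level of the 16 named genes on the log2(FPKM + 1) scale in stem, root and leaf of ZSZ1 (left) and QYZM (right), 1 library per point, grouped by class from top to bottom. The first 4 genes keep their order of stem and root in both panels. In the next 8, stem and root are separated in 1 panel and near each other in the other. The last 4 swap stem and root between panels.

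The average over varieties could be tested across genes. The test was limma's moderated test on log2(FPKM + 1) with tissue and variety terms over all 6 libraries, where the error is the departure of single libraries from additivity. Calls needed a 2-fold difference and a p below 0.05 after Benjamini-Hochberg adjustment. In limma 802 of 14941 tested genes were called, or 5.37%, with 544 higher in stem (3.64%) and 258 higher in root (1.73%), and every call fell among the 14425 members. All 544 lay among the 1140 genes stem-higher in both varieties and all 258 among the 561 root-higher in both. None lay among the 3206 genes in the other 2-fold classes, where limma gave 1377 genes an unadjusted p below 0.05. Since a gene whose difference is unlike between varieties has a large error by construction, this split follows from the model and is not a separate result.

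All 4 named shared genes were called. The limma difference was 4.88 ± 0.31 for Bnt04G007063 (SE; limma adjusted p = 0.0116) and 6.05 ± 0.83 for Bnt04G006519 (SE; limma adjusted p = 0.0234). It was -7.74 ± 0.30 for Bnt11G017074 (SE; limma adjusted p = 0.00543) and -6.43 ± 0.68 for Bnt01G000282 (SE; limma adjusted p = 0.0181). Where a library is listed at 0, as for Bnt04G006519, the value depends on the added 1. The call of this gene was lost at a pseudocount of 0.1 (limma adjusted p = 0.0565) and kept at 5 (limma adjusted p = 0.0237). It was lost under 7 of 17 alternatives, which also include a filter, a scaling, the fit without variety and libraries left out. The calls rest on the leaf libraries as part of the error term. With the 4 stem and root libraries alone, limma had 1 residual degree of freedom and called 0 genes, with 3125 of 14425 at an unadjusted p below 0.05 and a lowest adjusted p of 0.121. Limma also called 0 without ZSZ1 leaf or without QYZM leaf, and called 152 without ZSZ1 stem (67 higher and 85 lower in stem), 490 without ZSZ1 root and 1776 without QYZM root.

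Genes that parted the organs in ZSZ1 alone included large differences. Bnt06G009215 was at 175 FPKM in ZSZ1 stem against 0.541 FPKM in ZSZ1 root, and at 31.6 FPKM in QYZM stem against 24.9 FPKM in QYZM root. Bnt04G006235 was at 88.2 FPKM in ZSZ1 stem and listed at 0 in ZSZ1 root, against 9.65 FPKM in QYZM stem and 8.10 FPKM in QYZM root. In both genes ZSZ1 stem was the highest and ZSZ1 root the lowest of the 4 libraries. Both were abundant in leaf, at 214 FPKM in ZSZ1 and 243 FPKM in QYZM for Bnt06G009215, and at 32.6 FPKM in ZSZ1 and 182 FPKM in QYZM for Bnt04G006235.

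The root-higher pair of ZSZ1 alone had a single high library. Bnt05G008453 was at 0.0733 FPKM in ZSZ1 stem and 114 FPKM in ZSZ1 root, against 0.994 FPKM in QYZM stem and 1.53 FPKM in QYZM root. Bnt07G010885 was at 1.08 FPKM in ZSZ1 stem and 133 FPKM in ZSZ1 root, against 5.07 FPKM in QYZM stem and 3.82 FPKM in QYZM root. Only ZSZ1 root exceeded 6 FPKM in either gene, leaf included.

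In QYZM alone, Bnt06G009982 was at 4.71 FPKM in ZSZ1 stem and 5.88 FPKM in ZSZ1 root, against 90.2 FPKM in QYZM stem and 6.28 FPKM in QYZM root. Bnt06G010656 was at 2.96 FPKM in ZSZ1 stem and 1.90 FPKM in ZSZ1 root, against 16.0 FPKM in QYZM stem and 0.356 FPKM in QYZM root. In both, QYZM stem was the highest of the 4 libraries. For the root-higher pair it was QYZM stem that stood apart at the low end. Bnt13G018376 was at 107 FPKM in ZSZ1 stem and 80.3 FPKM in ZSZ1 root, against 5.97 FPKM in QYZM stem and 108 FPKM in QYZM root. BntUnG020203 was at 8.23 FPKM in ZSZ1 stem and 8.51 FPKM in ZSZ1 root, against 0.231 FPKM in QYZM stem and 17.0 FPKM in QYZM root.

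The 174 opposite genes exchanged the organ of higher expression. Bnt09G014300 was at 45.0 FPKM in ZSZ1 stem and 0.549 FPKM in ZSZ1 root, against 2.78 FPKM in QYZM stem and 35.8 FPKM in QYZM root. Bnt01G000680 was at 8.78 FPKM in ZSZ1 stem and listed at 0 in ZSZ1 root, against 0.640 FPKM in QYZM stem and 29.0 FPKM in QYZM root. In both genes the high organ of one variety was the low organ of the other. Leaf held both at moderate levels, from 7.94 to 17.6 FPKM.

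In the reverse direction, Bnt02G002147 was at 0.185 FPKM in ZSZ1 stem and 6.56 FPKM in ZSZ1 root, against 33.9 FPKM in QYZM stem and 2.78 FPKM in QYZM root. Bnt06G009839 was at 0.993 FPKM in ZSZ1 stem and 14.9 FPKM in ZSZ1 root, against 34.8 FPKM in QYZM stem and 4.72 FPKM in QYZM root. For both genes QYZM stem was the highest and ZSZ1 stem the lowest of the 4. Leaf levels of Bnt02G002147 also differed, at 0.635 FPKM in ZSZ1 and 26.4 FPKM in QYZM, whereas Bnt06G009839 was at 0.069 FPKM in ZSZ1 leaf and listed at 0 in QYZM leaf.

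A stem minus root difference that is unlike between varieties can come from root, from stem or from both. The difference was at least 4-fold apart between varieties in 841 genes (5.83% of the members), larger in ZSZ1 in 441 (3.06%) and smaller in ZSZ1 in 400 (2.77%). Of the 441, the varieties were further apart in root than in stem in 316, with a median ZSZ1 minus QYZM difference of -1.87 in root and 0.89 in stem. Their median level was 17.8 FPKM in ZSZ1 stem and 1.32 FPKM in ZSZ1 root, against 8.74 FPKM in QYZM stem and 9.81 FPKM in QYZM root. Of the 400, root was further apart in 199 and stem in 201, with medians of 1.46 in root and -1.30 in stem. Over all members root was the organ further apart in 61.4% of genes, so that the share was above this in the first group (71.7%) and below it in the second (49.8%). For the 841 genes together it was 61.2%. These shares come from the libraries that chose the genes and are a description. Over all members the standard deviation of the ZSZ1 minus QYZM difference was 0.92 in root, 0.76 in stem and 0.71 in leaf. The median of this difference was -0.13 in root and -0.06 in stem. The organ shares were not recomputed under other scalings.

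The shares of the 2-fold classes are read beside the same 61.4%. Among the 1404 genes stem-higher in ZSZ1 alone, root was the organ further apart in 989 genes (70.4%), and among the 294 root-higher in QYZM alone in 236 (80.3%). Among the 948 root-higher in ZSZ1 alone the share was 51.4%, and among the 386 stem-higher in QYZM alone 46.9%. The opposite genes differed by direction. Root was further apart in 65 of the 81 that were higher in ZSZ1 stem (80.2%), and stem in 69 of the 93 that were higher in ZSZ1 root (74.2%, against 38.6% of all members). The shares come from the same 4 libraries that placed the genes in their classes. They are a description, and no test was made of them. For the 81 genes the medians were 9.88 FPKM in ZSZ1 stem and 0.356 FPKM in ZSZ1 root, against 2.09 FPKM in QYZM stem and 12.0 FPKM in QYZM root. For the 93 they were 0.874 FPKM in ZSZ1 stem and 10.1 FPKM in ZSZ1 root, against 15.0 FPKM in QYZM stem and 3.04 FPKM in QYZM root.

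**Figure D4:**
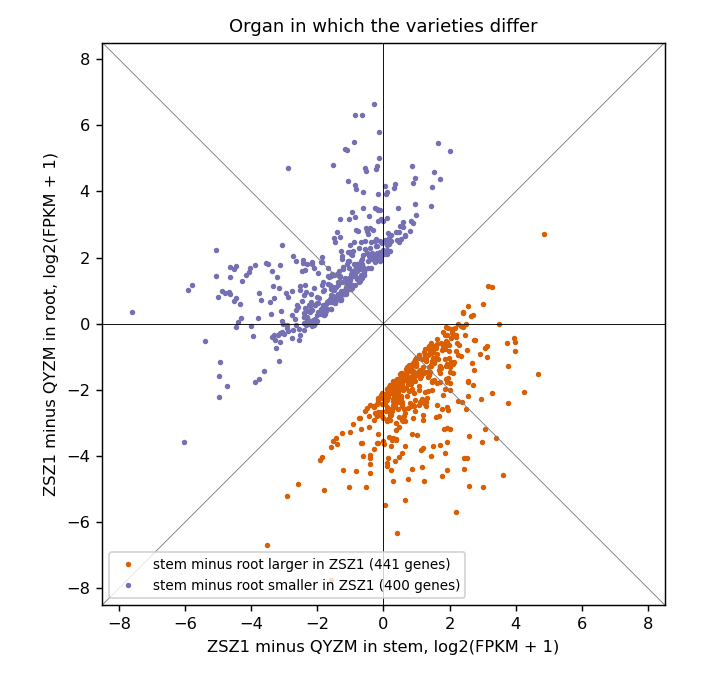
ZSZ1 minus QYZM difference in stem (horizontal) and root (vertical), on the log2(FPKM + 1) scale, of the 841 genes whose stem minus root difference was at least 4-fold apart between varieties, 1 point per gene. Points nearer the vertical than the horizontal axis differ more in root, which holds for 316 of the 441 genes at lower right and 199 of the 400 at upper left.

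Leaf took no part in the choice of the classes. All members had a median leaf level of 5.69 FPKM in ZSZ1 and 8.46 FPKM in QYZM, and 83.6% reached 1 FPKM in ZSZ1 leaf and 88.9% in QYZM leaf. Genes shared by both varieties as stem-higher had a median leaf level of 7.10 FPKM in ZSZ1 and 10.7 FPKM in QYZM, and made up 32.6% of the summed FPKM of ZSZ1 leaf and 32.7% of QYZM leaf. Shared root-higher genes had a median of 1.53 FPKM in ZSZ1 leaf and 2.12 FPKM in QYZM leaf, and made up 1.53% and 1.45% of these libraries. In leaf the opposite genes also parted. The 81 that were higher in ZSZ1 stem had a median of 8.34 FPKM in ZSZ1 leaf and 10.3 FPKM in QYZM leaf, and the 93 that were higher in ZSZ1 root had 0.360 FPKM in ZSZ1 leaf and 0.517 FPKM in QYZM leaf. At least 1 FPKM was reached in ZSZ1 leaf by 77.8% of the 81 and 39.8% of the 93, and in QYZM leaf by 79.0% and 39.8%. The 81 thus stood somewhat below the share over all members, and the 93 far below it.

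**Figure D5:**
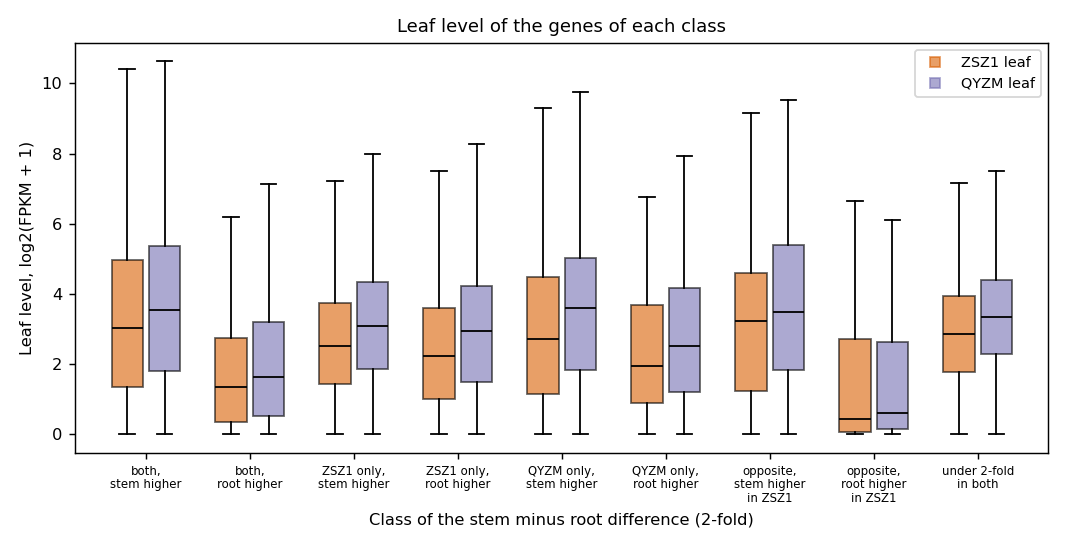
Leaf level on the log2(FPKM + 1) scale of the genes of each class in ZSZ1 leaf and QYZM leaf (line, median; box, interquartile range; whiskers, up to 1.5 times that range; points beyond are not drawn). The opposite genes higher in ZSZ1 root have the lowest leaf levels, with medians of 0.360 FPKM in ZSZ1 and 0.517 FPKM in QYZM, and the shared root-higher genes follow.

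Leaf also gave a variety difference that the classes did not use. Over all members ZSZ1 leaf was at least 2-fold above QYZM leaf in 1.71% of genes and at least 2-fold below it in 14.7%. The median difference was -0.41. Summed FPKM were 306497 in ZSZ1 leaf and 433435 in QYZM leaf, an offset of the whole library in the same direction. The leaf values were not scaled for this offset, and its part in the shares was not tested. Among the 948 genes root-higher in ZSZ1 alone 23.6% were 2-fold lower in ZSZ1 leaf and 2.95% higher. For the 1404 genes stem-higher in ZSZ1 alone the shares were 17.2% lower and 2.21% higher. In QYZM alone they were 22.0% lower and 1.30% higher for the 386 stem-higher genes. For the 294 root-higher genes of QYZM alone they were 14.6% lower and 3.06% higher. Among the 81 opposite genes higher in ZSZ1 stem 25.9% were lower and 7.41% higher. Among the 93 opposite genes higher in ZSZ1 root, 12.9% were lower and 6.45% higher. In the shared classes the shares were 18.1% lower and 3.25% higher for stem-higher genes, and 15.3% lower and 6.24% higher for root-higher genes. These shares stand beside those over all members without a test.

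Identifiers gave the only view of position. Of the members, 9.31% carry the prefix Bnt06, and so do 31 of the 174 opposite genes (17.8%). The share was 9.82% of the shared genes, 9.01% of those of ZSZ1 alone and 9.56% of those of QYZM alone. This prefix was singled out after the values were seen.

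Where the next identifier was also a member, it fell in the same class for 11.9% of shared stem-higher genes, which are 7.90% of the members, and for 10.9% of shared root-higher genes, which are 3.89%. In ZSZ1 alone the share was 10.8% for stem-higher genes, against 9.73% of the members, and 8.91% for root-higher genes, against 6.57%. In QYZM alone it was 3.87% for stem-higher genes, against 2.68%, and 1.78% for root-higher genes, against 2.04%. Among the opposite genes the next identifier was in the same class for 5 of 56 that were higher in ZSZ1 stem (8.93%, against 0.562% of the members) and for 2 of 66 that were higher in ZSZ1 root (3.03%, against 0.645%). The share was above that of the members in each class except the root-higher genes of QYZM alone, with no test made. Reads shared between similar neighbours could have been divided among them in the authors' counting, which FPKM alone do not show.

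The longest runs of neighbouring identifiers in a class were also singled out after the values were seen. The 6 genes Bnt06G009755 to Bnt06G009760 were all root-higher in both varieties. Among them 5 were listed at 0 in ZSZ1 stem and reached 0.872 FPKM at most in QYZM stem, against 5.95 to 76.0 FPKM in ZSZ1 root and 2.09 to 42.8 FPKM in QYZM root. The sixth, Bnt06G009759, was also present in stem, at 11.4 FPKM in ZSZ1 and 3.998 FPKM in QYZM. Limma called all of the run except Bnt06G009758 (limma adjusted p = 0.0624).

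Another run of 6, Bnt06G010277 to Bnt06G010282, was stem-higher in ZSZ1 alone. Its differences ran from 1.43 to 3.55 in ZSZ1 and from -0.09 to 0.86 in QYZM. The most abundant of them, Bnt06G010279, was at 631 FPKM in ZSZ1 stem and 53.0 FPKM in ZSZ1 root, against 193 FPKM in QYZM stem and 152 FPKM in QYZM root.

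The longest opposite run was Bnt06G009620 to Bnt06G009622. These 3 genes were at 15.1 to 26.4 FPKM in ZSZ1 stem and up to 0.974 FPKM in ZSZ1 root, against 1.16 to 11.0 FPKM in QYZM stem and 22.3 to 78.9 FPKM in QYZM root. ZSZ1 root was the lowest of the 4 libraries in each of the 3 genes. QYZM root was the highest in 2 of them, and ZSZ1 stem in Bnt06G009622.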

How the data were processed

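RNA-seq libraries of ZSZ1 and QYZM organs were made separately for each of 6 samples, per the labels' protocols. The authors deposited FPKM values for 20693 genes. Bowtie2 and RSEM are listed, per the submitters' processing notes, with no version and no role. Genome build, gene models and strand handling: not given in the sources used here. Read depth is unknown, so no counting intervals are given.

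Differences were computed as log2(FPKM + 1) of the deposited values with Python 3.11.15, numpy 2.4.6 and pandas 2.3.3, and drawn with matplotlib 3.10.9. The stem versus root test used limma 3.58.1 in R 4.3.3 with a mean-variance trend, on the 14941 genes that reached 1 FPKM in 2 or more of the 6 libraries. It had 2 residual and 3.71 prior degrees of freedom. Limma p-values set the stem versus root difference against the departure of these libraries from additivity. That departure may be technical or a true dependence on variety, which cannot be told apart here. The code of both steps was run on simulated data with planted changes of at least 4-fold. This checks the code and gives no error rate for these data. Whether the stem minus root difference itself differs between varieties could not be tested with 1 library per organ and variety.

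Members and classes were chosen with earlier results of these data known. Named genes were, per class and direction, the 2 with the largest smaller difference (shared, opposite) or, for a single variety, the 2 with the largest difference among those below 0.5 in the other. Gene lists by name could not be applied. Alternatives were pseudocounts of 0.1 and 5, other filters and scalings, other limma settings, and leaving out each library. A filter on the variety of choice alone was added after seeing the data.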

Additional observations from a re-analysis of the deposited data

Results flagged for a closer look

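Stem minus root differences ran in opposite directions in the 2 varieties, by at least 2-fold in each, in 174 genes. Of these, 81 were higher in ZSZ1 stem and QYZM root (0.562% of the members) and 93 in ZSZ1 root and QYZM stem (0.645%). By the same rule 1701 genes (11.8%) ran in the same direction. With 1 library per organ and variety, whether the stem minus root difference differs between varieties was not tested. The named genes of this kind differed between varieties, as the ZSZ1 minus QYZM value of stem minus root on the log2(FPKM + 1) scale, by 8.18 for Bnt09G014300, by 7.48 for Bnt01G000680 (which is listed at 0 in ZSZ1 root, so that its value depends on the added 1), by -5.88 for Bnt02G002147 and by -5.65 for Bnt06G009839.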

How the results depend on the processing

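Stem and root were paired by variety, through the variety term of the fit. Without that term limma called 486 genes against 802. Limma called 99 genes with no filter on low values (45.5% of them higher in stem, against 67.8%), 417 with totals scaled to 1000000 (62.1%), and 0 with the 4 stem and root libraries alone (3125 at an unadjusted p below 0.05). Leaving out 1 library gave 0 to 1776. The 0 arose without ZSZ1 leaf (3088 at an unadjusted p below 0.05) and without QYZM leaf (3094), each with 1 residual and about 2.4 prior degrees of freedom. The other 7 alternatives gave 583 to 793. The calls of Bnt04G007063 and Bnt11G017074 were lost under 3 of 17 alternatives, those that call no gene. That of Bnt01G000282 was lost under 4 and that of Bnt04G006519 under 7, with limma adjusted p from 0.000883 to 0.134 over the 4 genes.

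A pseudocount of 5, which shrinks differences of low genes, gave 582 genes stem-higher and 243 root-higher in both varieties, 1498 in ZSZ1 alone, 391 in QYZM alone and 66 opposite. A pseudocount of 0.1 gave 274 opposite. A mean of at least 5 FPKM, which tests fewer genes, gave 335 root-higher in both, 436 in QYZM alone and 108 opposite. Less than 0.5 in the other variety gave 1155 in ZSZ1 alone and 314 in QYZM alone. The correlation between varieties was 0.593 and 0.62 at pseudocounts of 0.1 and 5, 0.576 with no filter and 0.619 at a mean of at least 5 FPKM. Except as stated, causes were not tested. Under the 7 pseudocounts, filters and scalings, genes of ZSZ1 alone were 2.97 to 3.83 times as many as those of QYZM alone (3.46 as deposited). None of the 24 named differences reversed. Pseudocounts and filters cannot change the sign of a difference, and the named genes were chosen for large ones. The absence of reversals is therefore not a separate result. Quantile normalization moved the median stem minus root difference to -0.11 in ZSZ1 and -0.05 in QYZM, by 0.11 at most.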
